A study of Mus musculus with 16 samples.

Results

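The genes followed here were 8 members of the ATP-binding cassette (ABC) transporter family, Abca1, Abcb10, Abcc1, Abcc5, Abcd2, Abcd4, Abcf1 and Abcg1. They were taken by symbol from the deposited peak table, and made up 8 of its 4943 genes and 13 of its 7069 peaks. The study compared peritoneal macrophages (PMs) of wild-type (WT) mice with PMs of Adap-/- mice, which lack the adapter protein ADAP, by m6A immunoprecipitation sequencing (MeRIP-seq), in which an antibody to N6-methyladenosine pulls down methylated RNA fragments. PMs were collected by lavage 3 days after a 3% thioglycolate injection, cultured, and either left untreated (mock) or given lipopolysaccharide (LPS) at 1 ug/ml for 6 h. The 4 groups were WT mock, WT LPS, Adap-/- mock and Adap-/- LPS, each with 2 replicates, and every replicate had an input library (fragmented RNA before the antibody) and an immunoprecipitated (IP) library, 16 libraries in all.

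ABC proteins bind and hydrolyse ATP, and most members use it to move lipids, peptides or small molecules across a membrane. In macrophages the best known members are ABCA1 and ABCG1, which hand cholesterol to apolipoproteins and lipoprotein particles and are switched on by the sterol-sensing liver X receptors (LXR). Other members export glutathione conjugates and nucleotides, serve peroxisomes, lysosomes or mitochondria, or, as with ABCF1, have no membrane domain and act in translation.

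The deposited values were read counts in peaks. The level of a gene was its input reads summed over its peaks, as CPM (counts scaled to library size with trimmed-mean factors), and so covered only the transcript under its peaks. Input libraries held 2121313 to 4325961 counts in peaks and IP libraries 5728590 to 19030373. Nothing in the labels says that the replicates came from separate animals or cultures, so the p-values measure only the spread between these samples. A gene is said to have risen or fallen where the adjusted p of edgeR's quasi-likelihood test over 4742 genes was below 0.05, and all 8 members passed the filter on low counts. Abcd2 and Abcd4 passed it only because of their mock libraries, so their falls with LPS are not independent of the filter. With no filter the same falls were still called. Being bulk libraries, they cannot tell fewer cells of a type from less RNA per cell.

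The labels were first checked on the deleted gene. Fyb1, which encodes ADAP, was at 243 and 257 CPM in WT mock, 349 and 377 CPM in WT LPS, 46.7 and 36.9 CPM in Adap-/- mock, and 41.5 and 35.7 CPM in Adap-/- LPS. The Adap-/- libraries were below every WT library, with log2 differences of -2.58 without LPS and -3.22 with LPS. Counted only over peaks assigned to no other gene, the differences were -6.74 and -7.26, so that shared peaks held much of what remained. The LPS-induced cytokine genes Tnf (log2 6.85 in WT and 6.80 in Adap-/-) and Il6 (9.79 and 11.09) were higher in the LPS libraries of both genotypes. They belong to a list of 8 LPS-response genes, which the table holds under 10 gene identifiers, and all 10 rose in each genotype (median 8.04 in WT and 8.08 in Adap-/-). Of 12 macrophage markers 9 were tested, Lyz2 the most abundant in the mock libraries and Cd68 in the LPS libraries, and they summed to 9219 to 11424 CPM per library. With LPS 4 of the 9 rose and 2 fell in WT (all genes 30.3% and 28.9%), and 5 rose and 2 fell in Adap-/- (28.5% and 26.0%). Between the genotypes 1 was higher and 1 lower in Adap-/- without LPS (all genes 8.71% and 8.65%), and 1 higher and 3 lower with LPS (6.03% and 9.78%). None of 9 neutrophil, 6 B cell, 7 T cell, 5 eosinophil or 6 mast cell markers was in the table. Of 7 fibroblast and mesothelial markers 1, Pdgfra, was tested (27.4 to 70.8 CPM), and of 5 dendritic cell markers 1, Ccr7 (7.35 to 56.0 CPM). Ccr7 rose with LPS by 1.76 in WT (adjusted p = 0.000118) and 2.25 in Adap-/- (adjusted p = 1.84e-05), and its part in the LPS changes below was not tested.

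A pair of IP libraries stood apart from their replicates. On 462 peaks that LPS raised by more than 3 on the log2 scale in the input of both genotypes, the median level of a mock library as a percent of the LPS libraries of its kind was 43.0 in WT mock IP 1 and 7.51 in WT mock IP 2. It was 9.30 in Adap-/- mock IP 1 and 41.9 in Adap-/- mock IP 2. The mock input libraries, whose values had chosen the peaks, were at 2.42 to 3.94. On 84 peaks that LPS lowered to the same degree, the LPS libraries were at 17.2 and 13.7% of mock in WT IP, 8.44 and 7.88% in Adap-/- IP, and 5.37 to 6.91% in input. Thus 1 mock IP library of each genotype carried far more of the LPS-raised peaks than its replicate did. The labels do not settle whether these IP libraries were exchanged or mixed, which was not tested, so the ratios of WT mock replicate 1 and Adap-/- mock replicate 2 may not describe the group they are listed under. The input values were fixed by the choice of peaks and are no check of the input libraries. Gene levels below rest on input alone, and for the IP-to-input ratios the calls are given with and without these replicates.

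**Figure D1:**
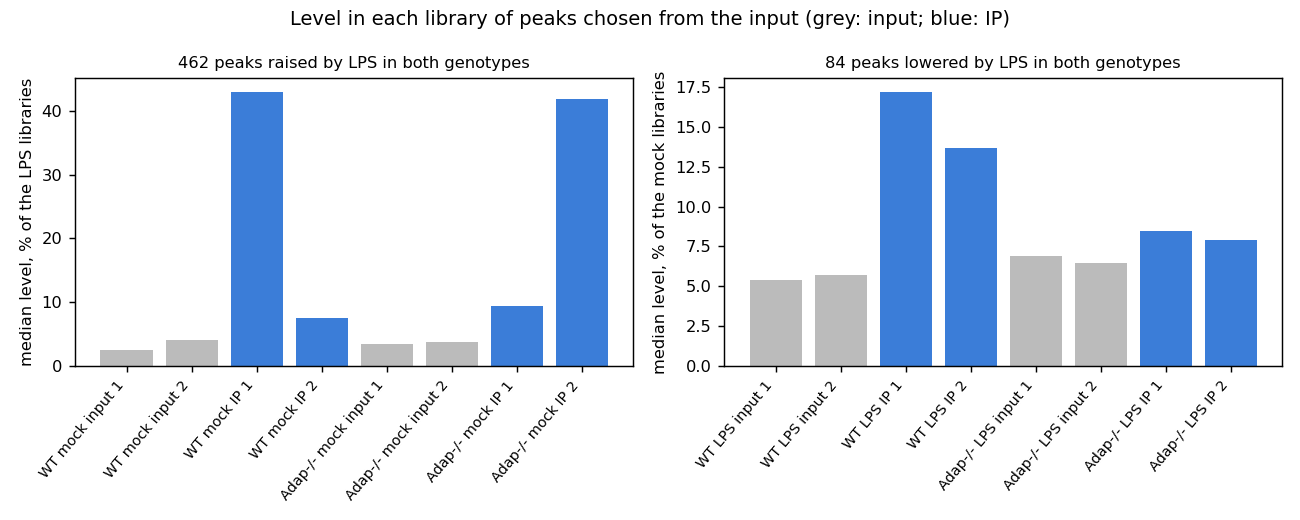
Median level, in percent of the libraries of the opposite treatment, of 462 peaks raised by LPS (left, mock libraries) and 84 peaks lowered by LPS (right, LPS libraries), with input in grey and IP in blue. WT mock IP 1 and Adap-/- mock IP 2 are at 43.0 and 41.9%, against 7.51 and 9.30% in the other mock IP library of each genotype.

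The first comparison asked how 6 h of LPS changed the members in WT PMs. All 8 passed the test, 4 up and 4 down, where 30.3% of all 4742 genes rose and 28.9% fell. Abca1, Abcc5, Abcc1 and Abcf1 rose by 1.31- to 1.56-fold. Abcg1, Abcb10 and Abcd4 fell by 1.79- to 2.94-fold, and Abcd2 fell to a few reads. The sterol exporters Abca1 and Abcg1 thus moved in opposite directions. The median log2 change of the 8 members was -0.23 and that of all genes -0.03.

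Among the members that rose together, promoter sequences were at hand for Abca1, Abcc5 and Abcf1 (4 of the 8 members matched the promoter table), and these are shown so that their upstream sequence can be compared. Each is the 250 bases before the RefSeq transcription start on GRCm38.p6, read 5' to 3' on the gene's own strand (minus for each of them), at chr4:53159896-53160145 for Abca1, chr16:20426395-20426644 for Abcc5 and chr17:35969751-35970000 for Abcf1.
Abca1: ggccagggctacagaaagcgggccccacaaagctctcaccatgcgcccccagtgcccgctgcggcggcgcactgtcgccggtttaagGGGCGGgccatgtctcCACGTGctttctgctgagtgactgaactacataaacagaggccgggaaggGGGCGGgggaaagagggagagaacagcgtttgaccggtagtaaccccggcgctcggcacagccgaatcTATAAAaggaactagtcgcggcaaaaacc
Abcc5: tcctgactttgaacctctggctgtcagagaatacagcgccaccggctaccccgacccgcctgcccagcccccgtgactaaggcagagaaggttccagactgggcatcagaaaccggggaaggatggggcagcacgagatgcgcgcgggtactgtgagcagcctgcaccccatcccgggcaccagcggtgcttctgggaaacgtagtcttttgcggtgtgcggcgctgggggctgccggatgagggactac
Abcf1: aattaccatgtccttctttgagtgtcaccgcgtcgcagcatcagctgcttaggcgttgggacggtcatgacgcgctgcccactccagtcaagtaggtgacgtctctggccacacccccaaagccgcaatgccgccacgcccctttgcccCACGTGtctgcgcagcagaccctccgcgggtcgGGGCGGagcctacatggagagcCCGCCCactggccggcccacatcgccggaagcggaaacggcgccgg
Capitals mark matches, on either strand, to the motifs searched. The TATA box TATAAA was in Abca1 (1 match) and in 12.4% of 32841 promoter windows of that length. The GC box GGGCGG was in Abca1 (2) and Abcf1 (2), and in 32.7% of windows. The E-box CACGTG was in Abca1 (1) and Abcf1 (1), and in 6.02% of windows. Abcc5 held no match. The nuclear receptor half-site AGGTCA (14.0% of windows), the antioxidant response core TGACNNNGC (10.2%), the AP-1 motif TGANTCA (6.75%) and the NF-kappaB consensus (7.25%) had no match in these windows, which says only that those letters are not there.

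Abca1 exports cholesterol and phospholipid to lipid-poor apolipoprotein. It was at 209.7 and 199 CPM in WT mock (204 ± 7.52, SD, n = 2), 294 and 345 CPM in WT LPS (319.8 ± 35.9), 324 and 309.9 CPM in Adap-/- mock (317 ± 10.0) and 426 and 396 CPM in Adap-/- LPS (411 ± 21.5). Each LPS group lay above its mock group without overlap, and Adap-/- mock lay within the range of WT LPS. The rise with LPS was 0.64 ± 0.10 (log2 ± SE, adjusted p = 5.28e-05) in WT and 0.38 ± 0.10 (adjusted p = 0.00476) in Adap-/-. The call in Adap-/- was lost without Adap-/- LPS replicate 1 (log2 0.32), and of the gene's 3 peaks fitted singly only peak 2 kept it (0.40), against 0.27 at peak 1 and 0.21 at peak 3.

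Abcg1, which passes sterol on to high-density lipoprotein, was at 136.3 and 135.8 CPM in WT mock (136 ± 0.382, SD, n = 2) and 63.1 and 67.6 CPM in WT LPS (65.3 ± 3.21). It was at 115 and 93.9 CPM in Adap-/- mock (105 ± 15.2) and 66.0 and 56.5 CPM in Adap-/- LPS (61.2 ± 6.72). The LPS libraries of both genotypes shared a range well below every mock library. The fall was -1.06 ± 0.13 (log2 ± SE, adjusted p = 2.67e-06) in WT and -0.77 ± 0.13 (adjusted p = 0.000111) in Adap-/-, and each kept its call without any single library.

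Abcc1 and Abcc5 are multidrug resistance-associated proteins. Abcc1 exports glutathione, its conjugates and cysteinyl leukotrienes, and was at 294 and 256 CPM in WT mock (275 ± 27.0, SD, n = 2), 336 and 389 CPM in WT LPS (363 ± 36.9), 412 and 478 CPM in Adap-/- mock (445 ± 47.1) and 554 and 656 CPM in Adap-/- LPS (605 ± 72.0). Its level was higher from group to group in that order, with no overlap between them. LPS raised Abcc1 by 0.40 ± 0.12 (log2 ± SE, adjusted p = 0.00911) in WT and 0.44 ± 0.12 (adjusted p = 0.00430) in Adap-/-. The WT call was lost without WT LPS replicate 2 (log2 0.29) or WT mock replicate 2 (0.28), and the Adap-/- call without Adap-/- LPS replicate 2 (0.32) or Adap-/- mock replicate 1 (0.33). Of its 3 peaks fitted singly, peak 3 was called in WT (0.39) but not peak 1 (0.28) or peak 2 (0.20), and peaks 2 (0.40) and 3 (0.42) in Adap-/- but not peak 1 (0.27).

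Abcc5, an exporter of cyclic nucleotides, was at 145 and 113 CPM in WT mock (129 ± 22.5, SD, n = 2) and 182 and 184 CPM in WT LPS (183 ± 1.13). It was at 177 and 231 CPM in Adap-/- mock (204 ± 38.3) and 224 and 247 CPM in Adap-/- LPS (235 ± 16.3), where mock and LPS overlapped. The rise with LPS was 0.50 ± 0.14 (log2 ± SE, adjusted p = 0.00585) in WT, and was lost without WT mock replicate 2 (log2 0.31). In Adap-/- it was 0.20 ± 0.13 (adjusted p = 0.215), not past the threshold, but passed without Adap-/- mock replicate 2 (log2 0.40).

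Abcd2 imports very-long-chain fatty acids into peroxisomes. Its single peak held 52 and 51 input reads in WT mock, 3 and 1 in WT LPS, 55 and 61 in Adap-/- mock, and 2 and 2 in Adap-/- LPS. It was near its detection limit in the 4 LPS libraries and in no mock library. Pooled over replicates, Abcd2 was 20.2-fold lower after LPS in WT (95% counting interval 7.66 to 75.6) and 23.0-fold lower in Adap-/- (8.74 to 85.8), where the exact intervals cover counting error only. The fit called both (adjusted p = 7.78e-07 and 4.11e-07).

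Abcd4 releases cobalamin (vitamin B12) from lysosomes. It was at 16.4 and 15.9 CPM in WT mock, 7.77 and 2.89 CPM in WT LPS, 11.02 and 8.01 CPM in Adap-/- mock and 2.82 and 2.92 CPM in Adap-/- LPS, from 8 to 64 reads per library. LPS and mock did not overlap in either genotype, and the WT LPS replicates lay far apart. The fall was -1.55 ± 0.36 (log2 ± SE, adjusted p = 0.00140) in WT and -1.71 ± 0.43 (adjusted p = 0.00309) in Adap-/-. Leaving out WT LPS replicate 1 made the WT value -2.46, and leaving out replicate 2 of that group made it -1.05, each still called. The peak lies in a transcript annotated to nonsense-mediated decay, so it does not measure the coding transcript alone.

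Abcb10 sits in the inner mitochondrial membrane and is tied to haem synthesis. It was at 9.97 and 10.5 CPM in WT mock, 4.97 and 6.51 CPM in WT LPS, 13.1 and 8.98 CPM in Adap-/- mock and 7.33 and 5.10 CPM in Adap-/- LPS. LPS lay below mock in both genotypes, on 14 to 50 reads per library. The change was -0.84 ± 0.34 (log2 ± SE, adjusted p = 0.0448) in WT and -0.80 ± 0.33 (adjusted p = 0.0504) in Adap-/-, on either side of the threshold. The WT call was lost with DESeq2 (adjusted p = 0.129), with relative log expression factors (0.0509), and without each WT library in turn: -0.65 and -1.04 without WT LPS replicates 1 and 2, -0.90 and -0.83 without WT mock replicates 1 and 2. In Adap-/- the change passed without Adap-/- mock replicate 2 (-1.06), and where 10 counts were asked of every library (-0.83). In the fit per peak its single peak was called in both, at -0.94 (adjusted p = 0.0234) in WT and -0.87 (adjusted p = 0.0302) in Adap-/-. Both of these calls were lost with DESeq2 (adjusted p = 0.0862 and 0.102). The WT call was also lost without WT LPS replicate 1 (-0.75) or WT mock replicate 2 (-0.90). That in Adap-/- was lost without Adap-/- LPS replicate 2 (-0.64) or Adap-/- mock replicate 1 (-0.57). Its peak is also assigned to a long noncoding RNA gene, ENSMUSG00000110615, and the reads of both cannot be told apart.

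Abcf1 binds translation initiation factors and has no transport role. It was at 65.5 and 55.8 CPM in WT mock (60.6 ± 6.86, SD, n = 2), 82.9 and 75.9 CPM in WT LPS (79.4 ± 4.97), 74.8 and 65.5 CPM in Adap-/- mock (70.2 ± 6.55) and 62.6 and 64.9 CPM in Adap-/- LPS (63.7 ± 1.60). LPS lay above mock in WT and below it in Adap-/-. The rise in WT was 0.39 ± 0.13 (log2 ± SE, adjusted p = 0.0146), and the change in Adap-/- was -0.14 ± 0.13 (adjusted p = 0.384). The WT call was lost with DESeq2 (adjusted p = 0.0535), in the fit per peak of its single peak (log2 0.29, adjusted p = 0.0698), and without WT LPS replicate 1 (log2 0.32) or WT mock replicate 2 (0.26).

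In Adap-/- PMs, therefore, 5 of the 8 members passed the test with LPS: Abca1 and Abcc1 up, where 28.5% of all genes rose, and Abcg1, Abcd2 and Abcd4 down, where 26.0% fell. The median change of the members was -0.45 and that of all genes -0.03. The scaling matters for the smaller rises. With upper-quartile factors the median of all genes moved by -0.287 in WT and -0.276 in Adap-/-, and with it the rises of Abcc1 (0.11), Abcc5 (0.21) and Abcf1 (0.10) in WT and of Abca1 (0.10) and Abcc1 (0.16) in Adap-/- were no longer called. Abcf1 in Adap-/- was then called lower (-0.41), as was Abcb10 (-1.07), and Abcc5 changed sign there without a call (-0.07). Relative to the median of all genes the values hardly moved: Abca1 was 0.68 above it in WT with the trimmed-mean factors and 0.67 with the upper-quartile factors.

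**Figure D2:**
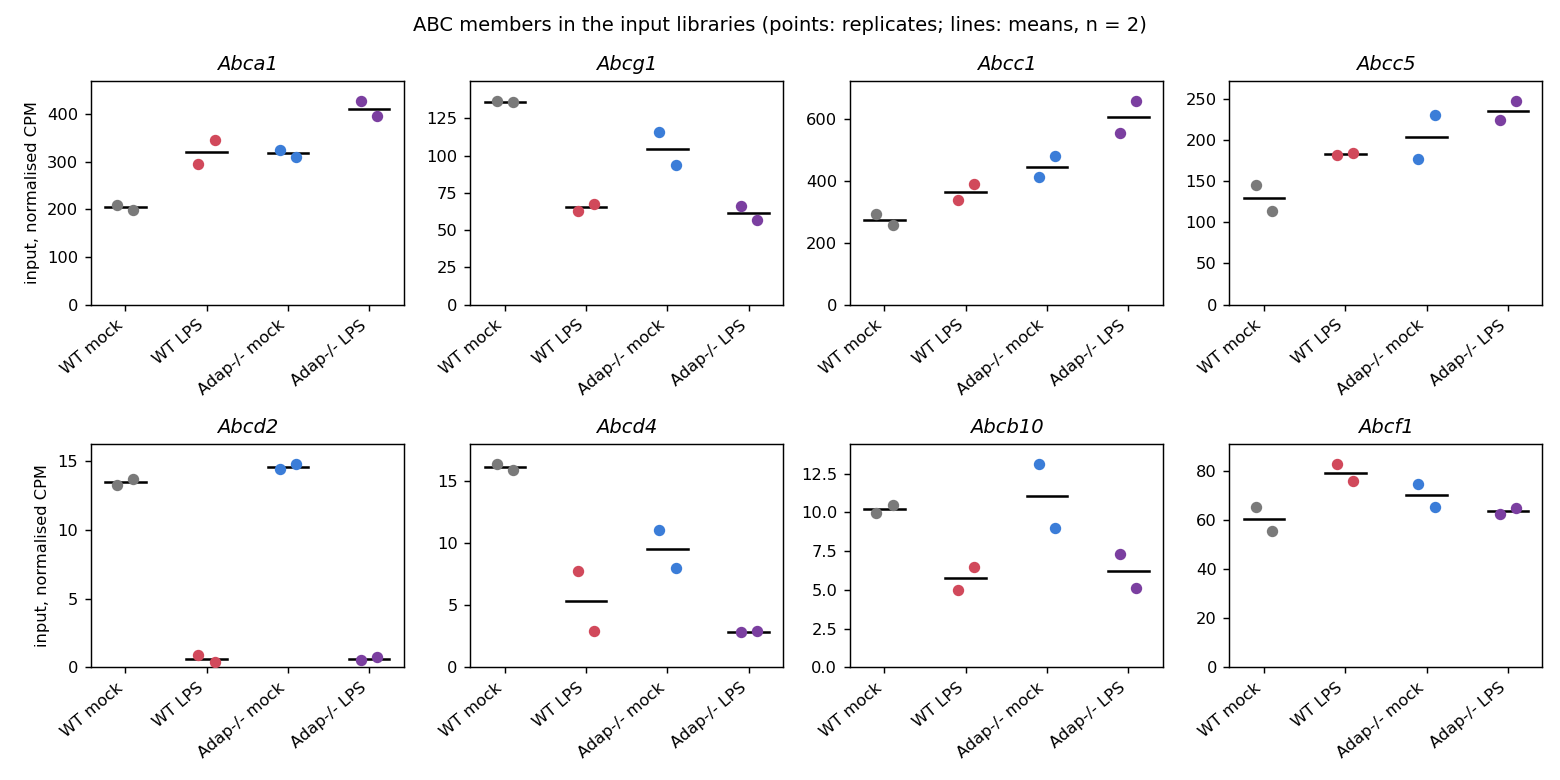
Input level of each member in normalised CPM (vertical axis from 0, scaled per gene) in the 4 groups, with a point per replicate and a line at the mean. Abca1 and Abcc1 are highest in Adap-/- LPS, Abcg1 is low in both LPS groups, and Abcd2 is close to 0 after LPS.

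The second comparison asked how the genotypes differed. It shares libraries with the LPS comparisons, so the values below are not independent of those above. Without LPS, 3 members were higher in Adap-/- PMs (8.71% of all genes) and 1 was lower (8.65%). Abca1 was higher by 0.63 ± 0.10 (log2 ± SE, adjusted p = 0.000732), Abcc1 by 0.70 ± 0.12 (adjusted p = 0.000997) and Abcc5 by 0.66 ± 0.14 (adjusted p = 0.00395), or 1.55- to 1.62-fold. Abcg1 was lower by -0.38 ± 0.12 (adjusted p = 0.0411). The Abcc5 call was lost without Adap-/- mock replicate 2 (log2 0.45). The Abcg1 call was lost without Adap-/- mock replicate 2 (-0.23), WT mock replicate 1 (-0.38) or WT mock replicate 2 (-0.38), with only the compared libraries in the fit (-0.37), with DESeq2 (adjusted p = 0.118), and at Abcg1 peak 1 fitted singly (-0.36, adjusted p = 0.0703). The median difference of the members was 0.16 and that of all genes 0.01.

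With LPS, 2 members were higher in Adap-/- PMs, Abcc1 and Abca1 (6.03% of all genes), and none was lower (9.78%). In the direction with no call, 0 of 8 had an adjusted p below 0.05 with edgeR, and 0 of the 5 to which DESeq2 gave one. The most negative values were -0.93 ± 0.49 (log2 ± SE, adjusted p = 0.236) for Abcd4, which without LPS was at -0.76 ± 0.31 (adjusted p = 0.104), and -0.32 ± 0.13 (adjusted p = 0.111) for Abcf1. Under the alternatives Abcd4 with LPS ran from -1.43 to -0.0145, and at the latter value it was not the most negative. Abcc1 was higher by 0.74 ± 0.12 (adjusted p = 0.000644) and kept its call under every alternative of the fit per gene. Fitted singly, Abcc1 peaks 1 (0.75), 2 (0.74) and 3 (0.67) were each called, and peak 3 lost its call without Adap-/- LPS replicate 2 (0.42). Abca1 was higher by 0.36 ± 0.10 (adjusted p = 0.0229), a call lost with DESeq2 (adjusted p = 0.0657) and without Adap-/- LPS replicate 1 (log2 0.31), Adap-/- LPS replicate 2 (0.42) or WT LPS replicate 1 (0.25). Of its peaks fitted singly peak 2 was called (0.42), and peaks 1 (0.36) and 3 (0.25) were not. Abcc5, at 0.36 ± 0.14 (adjusted p = 0.0896), passed with only the compared libraries in the fit (0.38) and without WT mock replicate 1 or 2 (0.38 each). Abcd2 had 4 reads in either genotype, a ratio of WT to Adap-/- of 1.05 with a counting interval of 0.196 to 5.64. The median difference of the members was 0.04 and that of all genes -0.01.

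Prg4, the 1 of 5 markers of resident PMs that was in the table, moved with the genotype. It was at 50.9 and 27.2 CPM in WT mock, 69.6 and 54.6 CPM in WT LPS, 155 and 311 CPM in Adap-/- mock and 215 and 445 CPM in Adap-/- LPS. Every Adap-/- library was above every WT library, with log2 differences of 2.57 (adjusted p = 0.000238) without LPS and 2.40 (adjusted p = 0.000309) with LPS. Its part in the genotype differences of the members was not tested.

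Whether LPS acted differently in the genotypes was asked with the interaction term, the log2 response of Adap-/- minus that of WT. Of the 8 members 0 passed with edgeR (all genes: 0.358% higher and 1.29% lower), 1 had an unadjusted p below 0.05, and DESeq2 called 0 (it gave an adjusted p for 4 of the 8). The member with the unadjusted p was Abcf1, at -0.53 ± 0.18 (log2 ± SE, adjusted p = 0.177). Abca1 was at -0.27 ± 0.14 (adjusted p = 0.487), Abcg1 at 0.29 ± 0.18 (adjusted p = 0.571) and Abcc5 at -0.29 ± 0.19 (adjusted p = 0.591). Under the alternatives Abca1 ran from -0.38 to -0.15, Abcg1 from 0.17 to 0.47 and Abcc5 from -0.47 to -0.07. The calls that passed in 1 genotype alone are therefore not shown to differ between the genotypes. The median was -0.17 over the members and -0.02 over all genes.

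**Figure D3:**
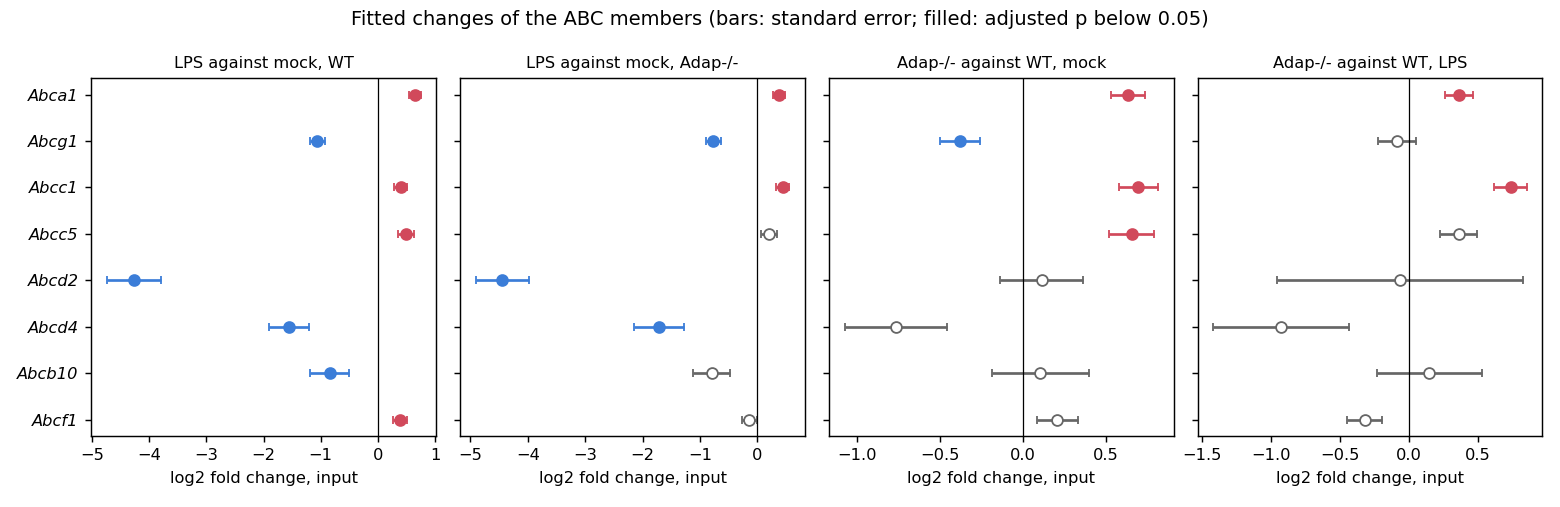
Fitted log2 differences in input for the LPS and genotype comparisons (horizontal axes differ in range between panels), with bars for the standard error and filled points where the adjusted p was below 0.05. Abca1 and Abcc1 lie above 0 in all 4 panels, and Abcd2 lies near -4 in the LPS panels.

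Levels of different genes were compared per length, as input CPM per kilobase of each gene's highest peak. In WT mock the order was Abca1 (1496), Abcc5 (1129), Abcg1 (935), Abcc1 (875), Abcf1 (371), Abcd4 (197), Abcd2 (165) and Abcb10 (69.6), and of neighbours only Abcg1 and Abcc1 overlapped between replicates. The order depends on the peak taken: in WT mock Abca1 had 1496 at its peak 3 but 345 at peak 2 and 48.9 at peak 1, by which it would not lead. In WT LPS the order was Abca1 (2113), Abcc5 (1360.3), Abcc1 (1050.0), Abcg1 (416), Abcf1 (414), Abcd4 (55.6), Abcb10 (33.2) and Abcd2 (6.75). There Abcg1 overlapped with Abcf1, and Abcd4 with Abcb10. Abca1 led and Abcc5 was second in Adap-/- mock (2378 and 1722) and in Adap-/- LPS (2527 and 1733) as well, where Abcc5 and Abcc1 (1691) overlapped.

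The 13 peaks lay mostly at the ends of the transcripts (build GRCm39). Abca1 had peak 1 at chr4:53033887-53035339 over the last coding part, the stop codon and the 3' UTR, peak 2 at chr4:53033487-53033861 over the stop codon and 3' UTR, and peak 3 at chr4:53032262-53032336 in the 3' UTR. Abcc1 had peak 1 at chr16:14291461-14291635 at the stop codon and 3' UTR, and peaks 2 and 3 at chr16:14291661-14291835 and chr16:14292036-14292210 in the 3' UTR. Abcg1 had peak 1 at chr17:31333271-31333470 at the stop codon and 3' UTR, and peak 2 at chr17:31336871-31336945 in the 3' UTR, 17 bases from the annotated end of the gene. The others had 1 peak each: Abcf1 at chr17:36267711-36267960 and Abcd4 at chr12:84649507-84649631 in a 3' UTR, Abcb10 at chr8:124680823-124681047 at the stop codon and 3' UTR, and Abcc5 at chr16:20211275-20211449 and Abcd2 at chr15:91075175-91075299 in coding sequence.

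In genes with several peaks, the input reads could be compared along the transcript. Abca1 peak 2 took 39.1 to 43.6% of the gene's input reads in the 8 libraries, and Abcc1 peak 3 took 34.4 to 41.5%. These shares stayed within narrow ranges whatever the group. Abcg1 did not.

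Abcg1 peak 2, near the end of the gene, held 45 and 59 input reads in WT mock, 3 and 5 in WT LPS, 25 and 23 in Adap-/- mock, and 9 and 18 in Adap-/- LPS. As a share of Abcg1 input reads this was 8.44% (95% exact interval 6.22 to 11.1) and 11.7% (9.03 to 14.8) in WT mock and 1.48% (0.306 to 4.26) and 2.67% (0.874 to 6.13) in WT LPS. It was 5.68% (3.71 to 8.27) and 5.94% (3.80 to 8.78) in Adap-/- mock and 3.85% (1.77 to 7.18) and 11.6% (7.03 to 17.7) in Adap-/- LPS. The WT libraries thus separated by treatment, and the Adap-/- libraries did not.

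Fitted per peak over 6794 peaks, Abcg1 peak 2 fell with LPS in WT by -3.42 ± 0.49 (log2 ± SE, adjusted p = 6.63e-06), and its change in Adap-/- was -0.55 ± 0.43 (adjusted p = 0.305). Under the alternatives the change in Adap-/- ran from -1.30 to 0.03. The interaction was 2.87 ± 0.71 (adjusted p = 0.0423), the 1 call among the 13 member peaks, where 2.02% of all peaks were called. Abcg1 peak 1 fell in both genotypes, by -1.04 ± 0.14 and -0.86 ± 0.14, with an interaction of 0.18 ± 0.20 (adjusted p = 0.768). The interaction of peak 2 rested on few reads and lost its call without Adap-/- LPS replicate 2 (log2 2.11), Adap-/- mock replicate 1 (3.01), Adap-/- mock replicate 2 (2.77), WT LPS replicate 1 (2.45), WT LPS replicate 2 (3.37) or WT mock replicate 2 (2.62). Its sign was the same in each of these fits, and DESeq2 gave 2.91 with no adjusted p. Without LPS, peak 2 was lower in Adap-/- (-1.22 ± 0.35, adjusted p = 0.0241), a call lost without Adap-/- mock replicate 1 (-1.33), Adap-/- mock replicate 2 (-1.09) or WT mock replicate 2 (-0.94). With LPS its genotype difference of 1.65 ± 0.62 (adjusted p = 0.0850) passed only without Adap-/- LPS replicate 1 (2.23), and was as low as 0.89 under another alternative. Peak 2 passed the filter on low counts only because of its mock libraries, so its fall with LPS and its interaction are not independent of that filter. The peaks of Abcg1 were singled out after their values were seen.

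**Figure D4:**
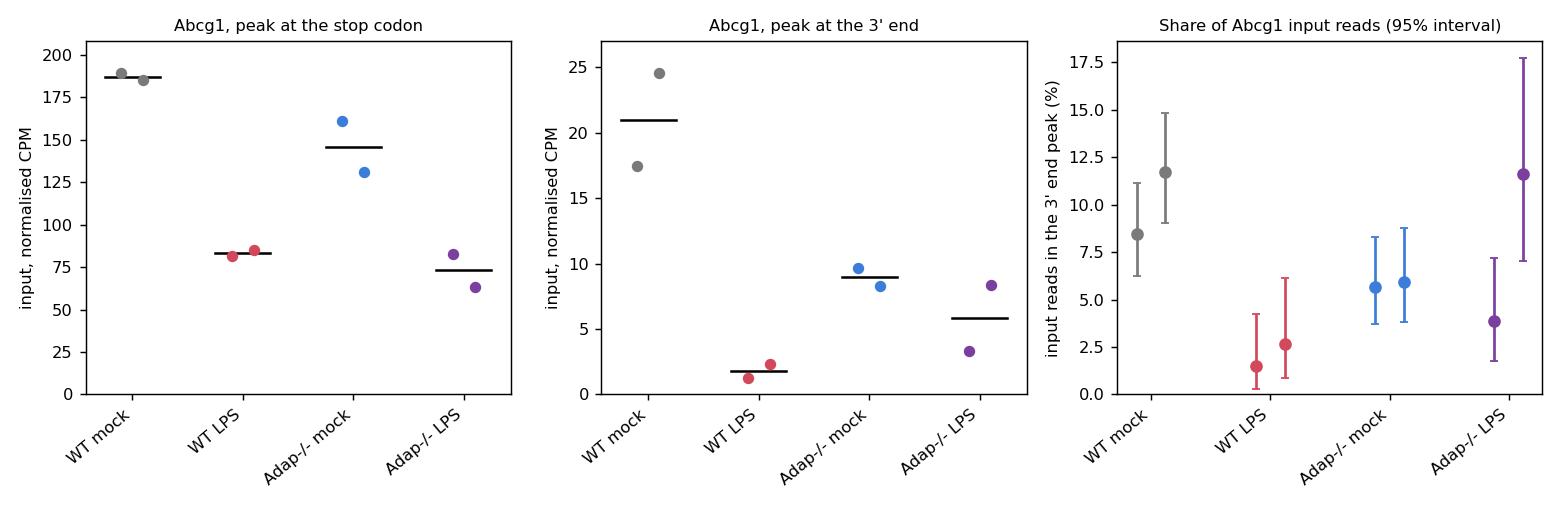
Input level of Abcg1 peak 1 (left) and peak 2 (middle) in CPM scaled over peaks, and the percent of Abcg1 input reads in peak 2 with its 95% exact interval (right), a point per replicate. Peak 2 holds 1.48 and 2.67% of the reads in WT LPS against 8.44 and 11.7% in WT mock.

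The last comparison asked whether the m6A signal per transcript changed, by the ratio of IP to input reads in each peak (scaled CPM of IP over scaled CPM of input). Over all peaks the median ratio of a replicate was 0.913 to 0.988. The scaling factors were taken over IP and input libraries together, which sets the typical peak near 1. A ratio of 1 thus marks the typical peak and not a lack of m6A capture. A change in m6A shared by most peaks would not show in these ratios. The Abcf1 peak was above 1 in all 8 replicates, at 1.42 and 1.66 in WT mock, 1.35 and 1.72 in WT LPS, 1.42 and 1.43 in Adap-/- mock and 2.16 and 2.03 in Adap-/- LPS. Its highest values were those of Adap-/- LPS, above all others. Abcb10 ranged from 0.988 to 3.22 and was above 1 in 7 of 8 replicates. Abcg1 peak 1 was close to the median peak in every replicate (0.868 to 1.07). The peaks of Abca1, Abcc1 and Abcc5 ran lower, from 0.377 for Abca1 peak 3 to 1.06 for Abca1 peak 2. For Abcd2 (0 to 1.93), Abcd4 (0.752 to 1.74) and Abcg1 peak 2 (0.159 to 3.46) some libraries had under 10 input reads (4, 2 and 3 of 8).

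None of the 13 ratios passed the test in any comparison. For LPS in WT, 0 of 13 were called (0% of 7058 peaks), and for LPS in Adap-/- 0 of 13 (0%). For Adap-/- against WT, 0 of 13 were called without LPS (0%) and 0 of 13 with LPS (0.0142%, 1 peak), and for the interaction 0 of 13 (0%). At an unadjusted p below 0.05 the counts in that order were 0, 2, 0, 1 and 1 with edgeR, and DESeq2 called 0 member peaks in each (with an adjusted p for 9 of 13 in the first and all 13 in the others), though over all peaks it called 202, 117, 0, 29 and 7. Without the replicates of WT mock IP 1 and Adap-/- mock IP 2, a setting chosen after seeing the data, 0 of 13 were called in each as well.

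The members with an unadjusted p below 0.05 were Abcf1 and Abcg1 peak 2. Abcf1 was higher with LPS in Adap-/- by 0.55 ± 0.21 (log2 ± SE, adjusted p = 0.352). Abcg1 peak 2 had ratios of 0.280 and 0.938 in WT mock, 3.46 and 1.72 in WT LPS, 1.85 and 1.59 in Adap-/- mock and 0.791 and 0.159 in Adap-/- LPS. It had differences of -2.30 ± 0.97 (adjusted p = 0.405) with LPS in Adap-/-, -2.73 ± 1.09 (adjusted p = 0.665) between the genotypes with LPS, and -4.10 ± 1.42 (adjusted p = 1.00) for the interaction. With 3 to 59 input reads per library, these sizes carry little weight. The ratio fit had a biological coefficient of variation of 30.6%, against 8.82% for gene levels in input. The standard errors of the 13 ratios with LPS in WT ran from 0.21 to 1.15.

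**Figure D5:**
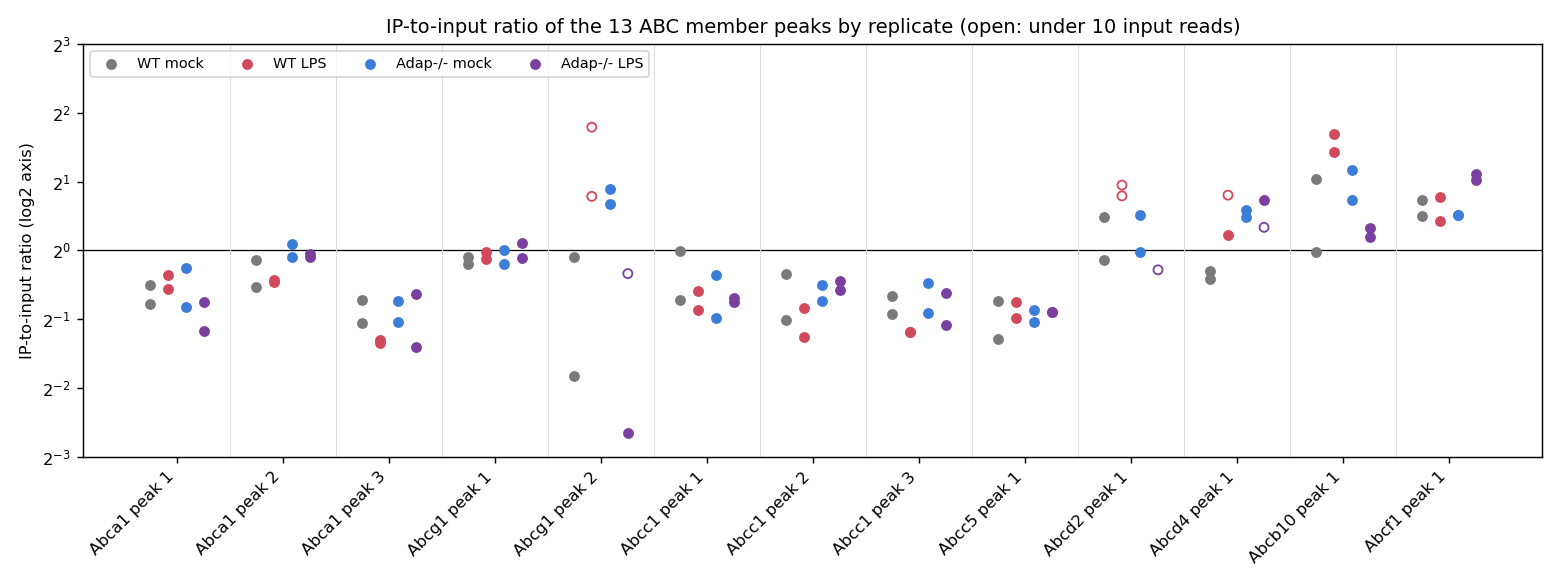
IP-to-input ratio of the 13 member peaks in each replicate on a log2 axis, coloured by group, with open points where the input had under 10 reads and a line at a ratio of 1; the Abcd2 value of 0 in Adap-/- LPS is off the axis. Abcf1 is above 1 in all 8 replicates, and Abca1 peaks 1 and 3 and the peaks of Abcc1 and Abcc5 are below 1 in all. By the scaling, 1 is near the median peak and does not mark a lack of m6A capture.

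The other genes of the pathways were taken from fixed lists, and the medians given for each list stand beside all-gene medians of -0.03 for LPS in WT, -0.03 for LPS in Adap-/-, 0.01 for the genotypes without LPS and -0.01 with LPS. The counts called up and down stand beside all-gene shares of 30.3% and 28.9% for LPS in WT, 28.5% and 26.0% for LPS in Adap-/-, 8.71% and 8.65% for the genotypes without LPS, and 6.03% and 9.78% with LPS, and in lists this small they were not tested against those shares. Among further ABC family genes, Tap1 and Tap2, the peptide transporter of antigen presentation, rose with LPS by 3.78 and 2.69 (log2) in WT and by 3.83 and 2.55 in Adap-/-. Neither passed the test between the genotypes or in the interaction, though Tap1 passed without LPS when WT mock replicate 1 was left out (-0.38). In the lists below the interaction was called for 1 gene, given with its list, and was near the threshold for Rxra (0.72 ± 0.18, log2 ± SE, adjusted p = 0.0549), which passed where 10 counts were asked of every library (0.75) and over peaks assigned to no other gene (0.74).

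Of 28 sterol efflux and LXR genes 11 were tested. With LPS 2 rose and 6 fell in WT, and 3 rose and 5 fell in Adap-/-, with median changes of -0.34 and -0.23. Ch25h, which makes an oxysterol, rose by 6.09 and 6.28, while the lipid-sensing receptor Pparg (-3.68 and -2.68), the cholesterol ester hydrolase Nceh1 (-1.81 and -2.07), the lipoprotein receptor Scarb1 (-1.33 and -1.68) and the LXR partner Rxra (-1.36 and -0.64) fell in both genotypes. Between the genotypes 1 was higher and 3 lower in Adap-/- without LPS (Ncoa6 0.62; Pparg -0.72, Nceh1 -0.43, Npc2 -0.41), and 1 higher and 1 lower with LPS (Rxra 0.55, Nceh1 -0.69). The medians were -0.15 and 0.22. All but the last of these calls hung on single libraries. Without Adap-/- mock replicate 2 those of Ncoa6 (0.55), Pparg (-0.52), Nceh1 (-0.36) and Npc2 (-0.39) were lost. So were those of Ncoa6 (0.42) and Npc2 (-0.32) without WT mock replicate 2, and that of Npc2 without Adap-/- mock replicate 1 (-0.43) or with DESeq2 (adjusted p = 0.0585). The Rxra call was lost without Adap-/- LPS replicate 2 (0.52) or WT LPS replicate 2 (0.46) and with DESeq2 (adjusted p = 0.0535).

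Of 20 sterol synthesis and uptake genes 8 were tested, of which 2 rose and 5 fell with LPS in WT and 1 rose and 3 fell in Adap-/- (medians -0.65 and -0.26). Dhcr7, of the last step of cholesterol synthesis, fell from 113 and 126 reads to 3 and 3 in WT, and from 98 and 121 to 5 and 4 in Adap-/-. The lipoprotein receptor gene Lrp1 fell by -1.33 and -1.26 and the lipase gene Lpl by -1.19 and -0.77. In Adap-/- the fall of Lrp1 was not called without Adap-/- LPS replicate 1 (-0.69) and was -2.00 without replicate 2. The sterol synthesis gene Sqle fell in WT (-0.78), which was not called without WT LPS replicate 1 (-0.42) and was -1.20 without WT LPS replicate 2. Between the genotypes Lpl was lower in Adap-/- without LPS (-0.58) and Sqle higher with LPS (0.69), with 1 of 8 called in each and medians of -0.02 and 0.19. The Lpl call was lost without Adap-/- mock replicate 1 (-0.47) or WT mock replicate 2 (-0.31). The Sqle call was lost without Adap-/- LPS replicate 1 (0.48) or WT LPS replicate 1 (0.34) and with DESeq2 (adjusted p = 0.0561), and the difference was 1.12 without WT LPS replicate 2.

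Of 20 genes of glutathione and conjugate export, which bear on the substrates of Abcc1, 5 were tested. Slc7a11, which imports cystine for glutathione synthesis, rose with LPS by 2.60 in WT and 2.31 in Adap-/-, and was higher in Adap-/- by 1.22 ± 0.19 (log2 ± SE, adjusted p = 0.000640) without LPS and 0.93 ± 0.15 (adjusted p = 0.000865) with LPS. It was called in the same direction as Abcc1 in these 4 comparisons. Keap1 rose with LPS (1.03 and 0.73) and was lower in Adap-/- with LPS (-0.43), and Gstm1 fell (-1.13 and -1.12). Over peaks assigned to no other gene Keap1 kept its call only for LPS in WT (0.49), with 0.28 for LPS in Adap-/- and -0.29 between the genotypes with LPS. In all, 2 rose and 1 fell with LPS in each genotype (medians 0.19 and 0.10), 1 was higher in Adap-/- without LPS (median 0.06), and 1 was higher and 1 lower with LPS (median -0.08).

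Of 24 peroxisome and cobalamin genes 6 were tested, with 1 up and 2 down with LPS in each genotype (medians -0.67 and -0.68). The acyl-CoA synthetase gene Acsl1 rose by 2.56 and 2.13, and the peroxisomal oxidase gene Acox3 fell by -2.21 and -2.32. Acsl1 was higher in Adap-/- without LPS (0.97, 1 of 6 called, median 0.00) and with LPS (0.54, 2 of 6 called, median 0.25). The call for Acsl1 with LPS was lost without Adap-/- LPS replicate 2 (0.45) or WT LPS replicate 1 (0.47).

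Of 16 mitochondrial haem and iron genes 4 were in the table and 3 were tested, with 2 up with LPS in WT, Slc25a37 and Slc25a28 (0.34), and 1 in Adap-/- (medians 0.70 and 0.23). The mitochondrial iron importer gene Slc25a37 was at 197 and 160.0 CPM in WT mock, 772 and 804 CPM in WT LPS, 391 and 489 CPM in Adap-/- mock and 1089 and 1200.2 CPM in Adap-/- LPS. It rose with LPS by 2.14 in WT and 1.38 in Adap-/-, with an interaction of -0.76 ± 0.17 (log2 ± SE, adjusted p = 0.0345; 1 of 3 called), and was higher in Adap-/- without LPS (1.30) and with it (0.54). It was the 1 of 3 called in each genotype comparison (medians 0.03 and -0.16). The interaction lost its call without Adap-/- LPS replicate 1 (-0.69) or 2 (-0.83), Adap-/- mock replicate 2 (-0.58), WT LPS replicate 1 (-0.79) or 2 (-0.73), or WT mock replicate 2 (-0.61), and the difference with LPS without Adap-/- LPS replicate 2 (0.47) or WT LPS replicate 1 (0.51). The rise of Slc25a28 was lost without WT LPS replicate 2 (0.18), WT mock replicate 1 (0.36) or WT mock replicate 2 (0.28), with DESeq2 (adjusted p = 0.0618), with upper-quartile factors (0.05) and where 10 counts were asked of every library (0.27).

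Of 12 translation partners of ABCF1 3 were tested, of which 2 rose with LPS in WT and 3 in Adap-/- (medians 1.68 and 1.75). Eif2ak2, a kinase of initiation factor eIF2, rose by 3.66 and 3.28, and Ppp1r15a, which directs the opposing phosphatase, by 1.68 and 1.75, and the initiation factor gene Eif1 rose in Adap-/- (0.56). Between the genotypes 0 of 3 were called without LPS with edgeR (median 0.05), and with LPS Eif2ak2 was lower in Adap-/- (-0.29, 1 of 3 called, median -0.17). That call was lost under most alternatives, among them DESeq2 (adjusted p = 0.132) and leaving out Adap-/- LPS replicate 1 (-0.29) or 2 (-0.30), Adap-/- mock replicate 1 (-0.28) or 2 (-0.28), or WT LPS replicate 1 (-0.39) or 2 (-0.20). The rise of Eif1 was lost without Adap-/- LPS replicate 1 (0.22) or Adap-/- mock replicate 1 (0.37), with DESeq2 (adjusted p = 0.0724) and with upper-quartile factors (0.29).

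The genes whose input pattern was most like each member were found by the root mean square difference of gene-centred log2 CPM over the 8 input libraries. They were Prrc2c (0.0793) and Arid5b (0.107) for Abca1, Sema4a (0.0585) and Kmt2d (0.128) for Abcc1, and Cmklr1 (0.114) and Mdm4 (0.119) for Abcc5. For Abcg1 they were ZNF251, as the table spells it, (0.0876) and Htra2 (0.0969), for Abcf1 Sema4d (0.101) and Casc3 (0.102), for Abcd2 Cxcr4 (0.193) and Kcnj2 (0.269), and for Abcd4 Pigy (0.209) and Tle5 (0.297). For Abcb10 the nearest was the noncoding gene that shares its peak, and then Marchf8 (0.100). Within the family the closest pair was Abcc1 and Abcc5 (0.158), followed by Abca1 and Abcc5 (0.172).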

How the data were processed

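The authors sequenced input and m6A-immunoprecipitated RNA and deposited counts of reads per merged peak for 16 libraries, with the gene and transcript feature under each peak. The submitters' processing notes name Bowtie2 2.2.8, MACS2 2.1.2, DiffBind 2.8 and GRCm39. Whether counting used strand is not given in the sources used here.

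Input counts were summed per gene over its peaks, and a peak assigned to several genes (925 of 7069) counted for each. Features passed filterByExpr with a minimum count of 10. Gene levels (4742 tested, 201 left out), input per peak (6794, 275 left out) and IP-to-input ratios per peak (7058, 11 left out) were fitted with trimmed-mean factors and quasi-likelihood tests in edgeR 4.0.16 (R 4.3.3, limma 3.58.1), each over all groups and Benjamini-Hochberg adjusted over all features. The scripts were tested on simulated counts. DESeq2 1.42.0, other scalings and filters, and each replicate left out in turn were alternatives. Tables were made with Python 3.11.15, pandas 2.3.3 and numpy 2.4.6. CPM per peak is scaled over peaks and is not on the scale of CPM per gene.

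Named genes were the 8 members, the fixed lists by counts with up to 4 of the largest called changes a list and comparison, and for each member the 2 genes with the nearest input pattern. A few genes that the rule would name are not reported here. Genes outside that rule are named as chosen after their values were seen. The members and lists were chosen with earlier results of these data known. Promoters are from RefSeq (GRCm38.p6), which differs from the build of the peaks, and 4 of 8 members matched.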

Additional observations from a re-analysis of the deposited data

Results flagged for a closer look

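For Abcg1 peak 2, near the end of the gene, the LPS response in input differed between the genotypes by a tested interaction: the log2 response in Adap-/- exceeded that in WT by 2.87 ± 0.71 (SE, adjusted p = 0.0423), on 3 to 59 reads per library. The peak was singled out after its values were seen, and passed the filter on low counts only because of its mock libraries. The call was lost (adjusted p = 0.0787 to 0.309) when any of 6 of the 8 replicates was left out, all but Adap-/- LPS replicate 1 and WT mock replicate 1, and DESeq2 gave no adjusted p.

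Among genes of the fixed lists the interaction was also called for Slc25a37 (log2 -0.76, adjusted p = 0.0345), and for the interferon-response genes Irf7 (-1.50, adjusted p = 0.000260) and Ifit1 (-1.56, adjusted p = 0.00179, for the 1 of 3 gene identifiers with that symbol that was called). Each rose less with LPS in Adap-/- than in WT. The call for Slc25a37 was lost without any of 6 of the 8 replicates, all but Adap-/- mock replicate 1 and WT mock replicate 1, and those for Irf7 and that Ifit1 identifier were kept under every alternative run. Irf7 was at 415 and 392 CPM in WT mock, 12584 and 12396 CPM in WT LPS, 887 and 886 CPM in Adap-/- mock and 10324 and 9070 CPM in Adap-/- LPS.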

How the results depend on the processing

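With every replicate kept, the count of members called changed by more than 1.5 times only in the cases given next, and the cause was not tested. For LPS in WT it was 5 of 8 with upper-quartile factors, against 8. Over all 4742 genes 1104 then rose and 1979 fell, against 1435 and 1372. For Adap-/- against WT with LPS it was 1 with DESeq2 (which gave an adjusted p for 5 of 8), against 2. Over all genes 514 were then called, against 750. For the interaction it was 1 when fitted per peak, against 0, where 137 of 6794 peaks and 78 of 4742 genes were called. Leaving out 1 replicate moved the count of members in every comparison but the interaction, and the count over all genes in each. For LPS in WT and for the genotypes without and with LPS, some of these fits also changed the count of members by more than 1.5 times. Where a group is left with 1 replicate, that replicate is assumed to vary like the other groups. For the members called in a comparison and for Abcg1 peak 2 in the interaction, 275 values under the alternatives kept the direction and the call, 1 by DESeq2 had no adjusted p, 36 kept the direction without the call, and none turned. In fits of the single peaks of the called members 28 kept both and 10 the direction alone. Members not called are not among these values, and some of those with small changes did turn, as did Abcc5 for LPS in Adap-/- with upper-quartile factors (-0.07). Apart from Abcg1 peak 2 in the interaction, the alternatives of the per-peak input fit are not among them either, and there some called peaks turned. For LPS in WT with upper-quartile factors the single peak of Abcc5 was at -0.03 and Abcc1 peak 3 at -0.04, neither called. Of the 13 ratios 0 were called in each comparison under every alternative run. Over all 7058 ratios the tools differed: DESeq2 called 202 for LPS in WT, 117 for LPS in Adap-/-, 0 and 29 for the genotypes without and with LPS and 7 for the interaction, where edgeR called 0, 0, 0, 1 and 0. Without WT mock replicate 1 and Adap-/- mock replicate 2, chosen after seeing the data, edgeR called 66, 101, 0, 0 and 0. Leaving out single replicates gave other counts: for LPS in WT, leaving out WT mock replicate 1 alone gave 0 and WT mock replicate 2 alone gave 75, and for LPS in Adap-/- leaving out Adap-/- mock replicate 1 or 2 alone gave 1 and 0.

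Nothing in the labels pairs replicates of different groups, which share only a number. Deviations of same-numbered libraries correlated at -0.0575 to 0.0627 in input and at -0.594 (WT mock with Adap-/- mock) to 0.26 in IP. Input and IP libraries of the same number within a group correlated at 0.0775 in Adap-/- LPS, 0.0242 in Adap-/- mock, 0.0908 in WT LPS and -0.098 in WT mock, so these values do not show that an IP library belongs with the input library it is divided by. With the replicate block 8, 5, 4, 2 and 0 members were called for LPS in WT, LPS in Adap-/-, the genotypes without and with LPS, and the interaction. Of all 4742 genes 2789, 2593, 784, 703 and 79 were called in that order. For the interaction of Abcg1 peak 2 the replicate block gave 2.85. Crossing the WT mock numbers in the replicate block, chosen after seeing the data as were the alternatives of the per-peak input fit and those for the genes of the lists, left the ratios at 0 called of 13 and called 28, 31, 0, 1 and 0 over all peaks, against 7, 6, 0, 0 and 0 with the numbers as labelled.

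With 2 replicates a group and at most 64 input reads for Abcb10, Abcd2, Abcd4 and Abcg1 peak 2, their changes carry wide errors. Input reads outside peaks were not used here, so a level reflects only the part of a transcript under a peak.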
